A study of Mus musculus with 12 samples.

Results

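The globin and erythroid genes followed here were Hba-a1 and Hba-a2, which encode the alpha chain of adult haemoglobin, Hbb-bs and Hbb-bt, which encode its beta chain, and Alas2, which encodes the erythroid form of aminolevulinate synthase, the first enzyme of haem synthesis. They were picked by name from the table of read counts per gene, where each had 1 row, so they are 5 of the 40594 genes in that table. The study sequenced total RNA from adult mouse hearts, with separate libraries for the left (LV) and right (RV) ventricles. The hearts were of control genotype or had a Wnt loss of function (Wnt LOF). The series title places its question in Wnt-dependent gene programmes and arrhythmia in the 2 ventricles. The 4 groups are control LV, control RV, WntLOF LV and WntLOF RV, with 3 libraries each and 12 in all. No agent is named for any group, and the labels give neither the gene that was targeted, nor a promoter or Cre driver, nor the strain, nor whether the hearts were rinsed of blood. Nor do they tie the 3 libraries of a group to different animals, and every p-value here is thus set against the spread among libraries. In each group the library numbered 3 differed from those numbered 1 and 2 in Y-linked and Xist reads, as given below, so this spread was not purely technical. Whether the libraries numbered 1 and 2 of a group came from different animals is not given.

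Haemoglobin carries oxygen in red blood cells and is built from alpha chains, beta chains and haem. Circulating red cells of the mouse have no nucleus, and the youngest of them, the reticulocytes, still hold globin mRNA made in the bone marrow or spleen. Heart muscle cells make myoglobin, a related oxygen-binding protein, and the housekeeping enzyme Alas1 for their own haem. Globin mRNA in a heart sample is therefore commonly read as a measure of the blood in it. In RNA from whole tissue, fewer cells of a type and less RNA per cell cannot be told apart.

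The libraries held between 13.3 and 19.2 times 1e6 counts. Markers of ventricular muscle such as Myh6 and Tnnt2 were present in all 12 libraries, with a summed level of the 10 genes on that list between 89400 and 97800 CPM, the counts of a gene per 1e6 counts of the library. Some libraries stood apart. Wif1, a secreted Wnt inhibitor, ran from 1.63 to 3.18 CPM in 5 of the 6 LV libraries and from 12 to 18.4 CPM in 5 of the 6 RV libraries, but it was at 13.5 CPM in the library labelled WntLOF LV 1 and at 2.55 CPM in the library labelled WntLOF RV 1. The library labelled control LV 2 resembled a Wnt LOF library of another number (correlation of deviations from the group means 0.321) more than the control RV library of its own number (0.29). Both Wnt LOF libraries numbered 1 and control LV 2 are called the 3 libraries in doubt. In each group the library numbered 3 held Y-linked reads: Ddx3y was at 102 to 136 CPM in these 4 libraries and at 0.111 to 0.772 CPM in the other 8, while Xist, the RNA of the inactive X chromosome, was at 3.59 to 25.1 CPM and 494 to 580 CPM.

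The alpha genes are near copies of each other, and so are the beta genes. In the mouse annotation (GENCODE M21) Hba-a1 (ENSMUSG00000069919) and Hba-a2 (ENSMUSG00000069917) lie on chromosome 11, Hbb-bs (ENSMUSG00000052305) and Hbb-bt (ENSMUSG00000073940) on chromosome 7, and Alas2 (ENSMUSG00000025270) on chromosome X. The main transcripts of the alpha copies align over 538 bases, of which 537 are identical, and their 426 coding bases differ only at C381T, counted from the A of the start codon with the Hba-a1 base first. The main transcripts of the beta copies align over 619 bases, of which 581 are identical, and their 441 coding bases differ only at C417T, with the Hbb-bs base first. The stretches around these bases are shown because reads that lie elsewhere in the coding sequence cannot be assigned to a copy. The capital marks the base that differs.
Hba-a1: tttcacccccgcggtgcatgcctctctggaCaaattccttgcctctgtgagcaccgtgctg
Hba-a2: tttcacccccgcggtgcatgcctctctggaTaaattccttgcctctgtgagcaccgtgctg
Hbb-bs: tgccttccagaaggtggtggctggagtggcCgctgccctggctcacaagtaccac
Hbb-bt: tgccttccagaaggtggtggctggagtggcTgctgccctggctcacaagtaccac
The alpha stretches cover coding bases 351 to 411 and the beta stretches coding bases 387 to 441. How the authors counted reads that fit both copies is not given in the sources used here. The division of counts within each pair is therefore uncertain, and the sum of a pair is the firmer value.

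All 5 members had a promoter in the RefSeq table (build GRCm38.p6; 32851 promoters). The 130 bases before the gene start are shown for 4 of them, so that the places of the motif matches within these bases can be compared. Capitals mark matches, on either strand, to the GATA motif (AGATAA or TGATAA), the CACCC box (CACCC), the CCAAT box (CCAAT) and the TATA box (TATAA). Some matches lie further upstream and are not shown, among them the GATA motifs of Hba-a1 and Hbb-bs and the TATAA matches of Alas2.
Hba-a1, chr11:32283542-32283671, plus strand: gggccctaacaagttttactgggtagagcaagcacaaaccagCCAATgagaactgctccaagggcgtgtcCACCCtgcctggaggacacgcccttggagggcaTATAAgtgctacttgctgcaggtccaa
Hbb-bs, chr7:103827929-103828058, minus strand: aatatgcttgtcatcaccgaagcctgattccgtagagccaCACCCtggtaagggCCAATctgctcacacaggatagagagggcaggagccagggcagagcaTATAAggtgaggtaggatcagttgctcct
Hbb-bt, chr7:103813924-103814053, minus strand: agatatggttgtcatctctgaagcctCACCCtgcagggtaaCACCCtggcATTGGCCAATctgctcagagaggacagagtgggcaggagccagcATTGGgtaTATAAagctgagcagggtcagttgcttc
Alas2, chrX:150547287-150547416, plus strand: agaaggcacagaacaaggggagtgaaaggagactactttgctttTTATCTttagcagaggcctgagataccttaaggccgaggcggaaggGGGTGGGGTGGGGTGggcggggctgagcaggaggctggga
Over the 250 bases before the start, the CACCC box was present in all 5 members and in 52.0% of all promoters in the table. A GATA motif was present in Hba-a1 (first base at -183), Hba-a2 (-186), Hbb-bs (-210) and Alas2 (-86, on the minus strand) and in 16.6% of all promoters. The CCAAT box was present in the 4 globin genes and in 33.8% of all promoters. The bases TATAA were present in all 5 members and in 22.8% of all promoters. In Hba-a1, Hba-a2, Hbb-bs and Hbb-bt they had a match at -27, -30, -29 and -28. In Alas2 the only matches, on both strands, overlap at -208 and -207, so none lay at that distance from the start. The Hba-a2 promoter (chr11:32296362-32296491 for its 130 bases) is not printed because its 247 bases that can be set against Hba-a1 were all identical, at an offset of 3 bases.

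Globin reads were a small part of every library. The 4 globin genes together took 0.0137% ± 0.00686 of the counts (SD, n = 12), with a range from 0.006% to 0.0288%. Levels were divided by the merged length of all annotated exons of a gene, which can exceed that of its main transcript. The mean level per kilobase was then 124 CPM for Hbb-bs, 35.8 CPM for Hba-a1, 10.3 CPM for Hbb-bt, 9.42 CPM for Hba-a2 and 8.76 CPM for Alas2. Hbb-bs was the highest of the 5 on this scale, and the ranges over libraries of Hbb-bt (5.31 to 19.9 CPM per kilobase) and Alas2 (5.38 to 12.5 CPM per kilobase) overlapped. Myoglobin (Mb), at a mean of 9480 CPM, and cytoglobin (Cygb), at 84.6 CPM, are the globins made by heart cells. The embryonic globins Hba-x, Hbb-bh0 and Hbb-bh2 had no read in any library, and Hbb-y and Hbb-bh1 had 1 read each over all 12.

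Hbb-bs, the main beta gene, was at 74.5, 62.9 and 76.2 CPM in control LV libraries 1 to 3 and at 103, 156 and 90.3 CPM in control RV. In Wnt LOF it was at 40.9, 54.4 and 140 CPM in the LV and at 49.2, 88.8 and 204 CPM in the RV. The control ventricles did not overlap, whereas WntLOF LV overlapped with both of them and WntLOF RV spanned the range of both. Of all tested genes, 6.68% had every control RV library above every control LV library, and 5.92% had every one below. In each Wnt LOF group the library numbered 1 was the lowest and the library numbered 3 the highest. The group means were 71.2 ± 7.2 CPM in control LV, 116 ± 34.9 CPM in control RV, 78.4 ± 53.7 CPM in WntLOF LV and 114 ± 80.6 CPM in WntLOF RV (SD, n = 3 each).

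Hbb-bt, the minor beta gene, was at 4.07, 6.22 and 5.45 CPM in control LV and at 5.91, 12.4 and 8.55 CPM in control RV. It was at 3.74, 4.48 and 14 CPM in WntLOF LV and at 4.22, 4.51 and 13.6 CPM in WntLOF RV. Its share of the beta counts ran from 4.84% to 9.11% in the 12 libraries. The order of the libraries was not the same for both beta genes: control LV 2 was the lowest of its group for Hbb-bs and the highest for Hbb-bt.

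Hba-a1 was at 27.7, 25.4 and 20.3 CPM in control LV and at 34.8, 57.2 and 20.6 CPM in control RV. It was at 13.2, 19.2 and 26.5 CPM in WntLOF LV and at 19.8, 36 and 47.8 CPM in WntLOF RV. All 4 groups overlapped with each other, and the group means ran from 19.6 ± 6.67 CPM in WntLOF LV to 37.6 ± 18.4 CPM in control RV (SD, n = 3 each).

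Alas2 was at 12.9, 14.9 and 24.6 CPM in control LV and at 23.5, 21.7 and 30 CPM in control RV. It was at 19.4, 16.5 and 25.9 CPM in WntLOF LV and at 16.2, 21.3 and 25.5 CPM in WntLOF RV. In each group the library numbered 3 was the highest, and these 4 libraries (24.6 to 30 CPM) did not overlap with the other 8 (12.9 to 23.5 CPM). Of all tested genes 1.34% were higher in every library numbered 3 than in every other library, and Hba-a2 and Alas2 were the 2 members among them. No member was lower in all of them, as 1.64% of all genes were. Alas2 is X-linked and these libraries are those with Y-linked reads and little Xist. The part of sex in this difference cannot be told apart from anything else that the libraries numbered 3 share. The ratio of Alas2 to beta globin counts ran from 0.117 to 0.436, with its lowest value in WntLOF RV 3, which had the most globin, and its highest in WntLOF LV 1, which had the least.

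The alpha copy Hba-a2 had a pattern of its own. In the libraries numbered 1 and 2 it had between 0 and 5 reads, and 15 of the 3992 alpha reads of these 8 libraries in all. In the libraries numbered 3 it had 158 reads in control LV, 221 in control RV, 318 in WntLOF LV and 474 in WntLOF RV, which is 12, 14.4, 17.8 and 30.3 CPM. The gene was thus counted in both ventricles and both genotypes, always in the library numbered 3.

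As a share of all alpha counts, Hba-a2 made up 37.1% in control LV 3 (exact Clopper-Pearson 95% interval 32.5 to 41.9), 41.2% in control RV 3 (37.0 to 45.4), 40.3% in WntLOF LV 3 (36.8 to 43.8) and 38.8% in WntLOF RV 3 (36 to 41.6). These 4 intervals overlap each other. In the other 8 libraries the share ran from 0% to 1.69%, and the count of 0 among the 356 alpha reads of WntLOF RV 1 allows a share of up to 0.843% when 3 counts are taken as the limit, and up to 1.03% by the exact interval. The intervals and this limit cover counting error only. The ratio of beta to alpha counts showed no such step: it was 2.53 to 3.47 in the libraries numbered 3 and 2.58 to 3.37 in the others. The level of Hba-a1 overlapped, with 20.3 to 47.8 CPM against 13.2 to 57.2 CPM, but relative to Hbb-bs of the same library it did not: the ratio of Hba-a1 to Hbb-bs was 0.189 to 0.266 in the libraries numbered 3 and 0.322 to 0.406 in the other 8. Hba-a1 was thus lower beside Hbb-bs in the libraries where Hba-a2 was counted. With a similar beta to alpha ratio and the Hba-a2 shares above, a lower ratio of Hba-a1 to Hbb-bs follows by arithmetic. It is therefore no separate result. The ratio of Hba-a1 to Hbb-bs was computed after the data were seen.

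**Figure D1:**
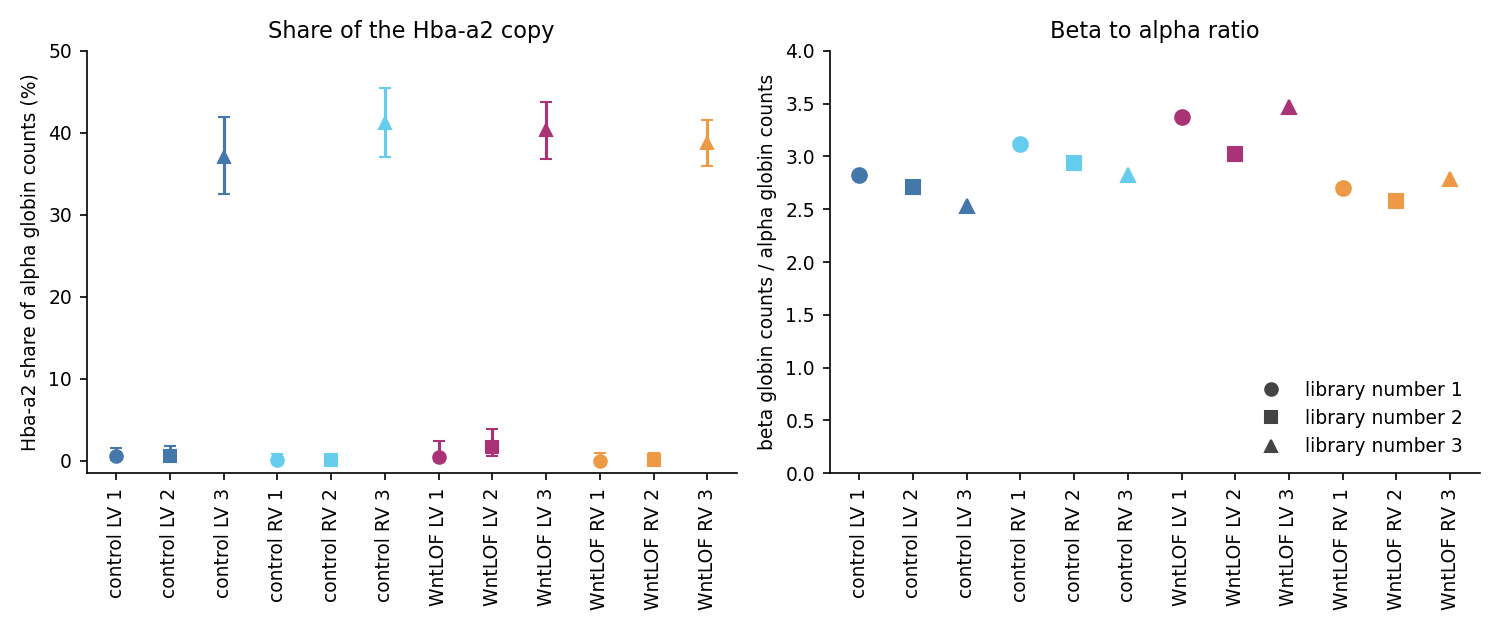
Left, Hba-a2 as a percentage of the alpha globin counts of each library, with exact 95% intervals for counting error. Right, the ratio of beta to alpha globin counts in the same libraries. The share is 37.1% to 41.2% in the 4 libraries numbered 3 and at most 1.69% in the others, while the ratio stays between 2.53 and 3.47 throughout.

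Few other genes had this step. Of the 15494 genes tested, 9 were at least 5-fold higher in every library numbered 3 than in every other library: the Y-linked genes Ddx3y, Eif2s3y, Kdm5d and Uty, the X-linked Rpl3-ps1, and 4 genes of chromosome 11, Hba-a2, Cyfip2, Glns-ps1 and Pttg1. In the other direction there were 3, Xist and Rab39b on chromosome X and Gm1821 on chromosome 14. Among 16 tested genes with starts within 1 megabase of Hba-a2, Hba-a2 was at 12 to 30.3 CPM in the libraries numbered 3 and at 0 to 0.329 CPM in the others. The remaining genes had log2 ratios of mean levels, computed with 0.05 CPM added to each mean, between -0.64 (Fgf18) and 0.71 (Ranbp17), with Hba-a1 at -0.02. Bod1 (60.8 to 71.4 against 40.9 to 57.6 CPM), Npm1 (34.5 to 39.6 against 25.4 to 32.5) and Ranbp17 (1.85 to 2.42 against 0.738 to 1.83) were higher in every library numbered 3. Of all tested genes 1.34% were, and the rest of these neighbours overlapped. The contributions of sex, genetic background and the handling of shared reads to the Hba-a2 step were not tested.

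Wnt LOF and control hearts did not differ in any of the 5 genes beyond the spread between libraries. In edgeR's quasi-likelihood test over all 15494 genes, 0 of the 5 members and 0 of all genes (0%) had a Benjamini-Hochberg adjusted p below 0.05 in either ventricle. With no adjustment, 442 genes (2.85%) in the LV and 418 (2.7%) in the RV had p under 0.05, and 0 of the members did. No member had all its Wnt LOF libraries above or all below the control libraries of the same ventricle, beside 3.95% of all genes in each direction in the LV, and 3.61% higher and 3.94% lower in the RV. In the LV the log2 fold change of Wnt LOF over control was 0.14 ± 0.58 (SE) for Hbb-bs, 0.51 ± 0.60 for Hbb-bt, -0.32 ± 0.42 for Hba-a1 and 0.25 ± 0.26 for Alas2, each with an adjusted p of 0.999 in edgeR. In the RV it was -0.03 ± 0.57 for Hbb-bs, -0.27 ± 0.58 for Hbb-bt, -0.12 ± 0.41 for Hba-a1 and -0.26 ± 0.25 for Alas2, each with an adjusted p of 1.0 in edgeR. For Hba-a2 the standard errors were 2.51 and 2.42 on this scale, so the genotype comparisons say little about it. With the copies of a pair summed before the fit, the log2 fold change in the LV was -0.147 ± 0.555 (SE) for alpha and 0.168 ± 0.578 for beta. In the RV it was 0.073 ± 0.543 for alpha, with the other sign from Hba-a1 alone, and -0.046 ± 0.573 for beta. Over the 5 members the median log2 fold change was 0.25 in the LV and -0.12 in the RV, beside medians over all tested genes of -0.004 and 0.001.

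The summed globin level was 105 ± 9.63 CPM in control LV and 111 ± 75.8 CPM in WntLOF LV, and 168 ± 50.5 CPM in control RV and 166 ± 116 CPM in WntLOF RV (SD, n = 3 each). The log2 ratio of the means was 0.09 in the LV and -0.01 in the RV, well inside the within-group SD of 0.66 and 0.77 on the log2 scale. These near-equal means rest on the libraries numbered 3. Without WntLOF LV 3 the ratio in the LV was -0.63, without WntLOF RV 3 that in the RV was -0.73, and without all 4 libraries numbered 3 the values were -0.56 and -0.87. Without the 3 libraries in doubt they were 0.33 and 0.34. The Wnt LOF groups were the more scattered: their globin ran from 57.8 to 198 CPM in the LV and from 73.2 to 296 CPM in the RV. In each of these groups the lowest was the library numbered 1, which is in doubt, and the highest the library numbered 3. Libraries of the same number are treated as pairs below, so the LV and RV groups do not show this scatter independently. The difference in scatter between genotypes was not tested.

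The authors' deposited table of comparisons listed the same genes without a call, and for 3 of the values the sign differed from that of the edgeR fit above. In the authors' deposited table Hbb-bs had a log2 fold change of -0.14 (95% interval -0.95 to 0.67) in the LV and 0.04 (-0.74 to 0.82) in the RV, and Hba-a1 had -0.44 (-1.26 to 0.39) and 0.17 (-0.55 to 0.90). For Hbb-bt the authors' deposited table gave 0.30 in the LV and -0.006 in the RV, and for Hba-a2 0.52 and 1.05. These intervals of Hbb-bs and Hba-a1 all include 0. Alas2 had a log2 fold change of 0.31 (95% interval 0.02 to 0.61; p = 0.0397, adjusted p = 0.841 in the authors' deposited table) in the LV. In the RV the authors' deposited table gave -0.29 (p = 0.0394, adjusted p = 0.918 over the listed genes, by the authors' model across all genes). Of the 14179 genes in the authors' deposited table, 0 had an adjusted p below 0.05 in either ventricle.

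As labelled, the right ventricle library held more globin than the left in each pair with the same number. Summed over the 4 genes, RV was above LV in 6 of 6 pairs, by 1.35, 2.38 and 1.18 times in control and by 1.27, 1.65 and 1.49 times in Wnt LOF. Hbb-bs and Hba-a1 were each higher in 6 of 6 pairs, Hbb-bt in 5, Alas2 in 4 and Hba-a2 in 2, where the other 4 Hba-a2 pairs hold 0 to 5 reads a library. Of all tested genes 3.4% were higher in the RV in all 6 pairs. The Wnt LOF pair numbered 1 consists of both libraries whose Wif1 level goes against the labels, and the tallies depend on it. With these 2 labels exchanged, the pair would have an RV over LV ratio of 0.79 for summed globin, and the tallies would be 5 of 6 pairs for summed globin, Hbb-bs, Hba-a1 and Alas2, 4 for Hbb-bt and 3 for Hba-a2. Without the pair, summed globin, Hbb-bs and Hba-a1 were higher in the RV in 5 of 5 pairs and Hbb-bt and Alas2 in 4. In the 4 pairs that hold none of the libraries in doubt summed globin was also higher in the RV.

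**Figure D2:**
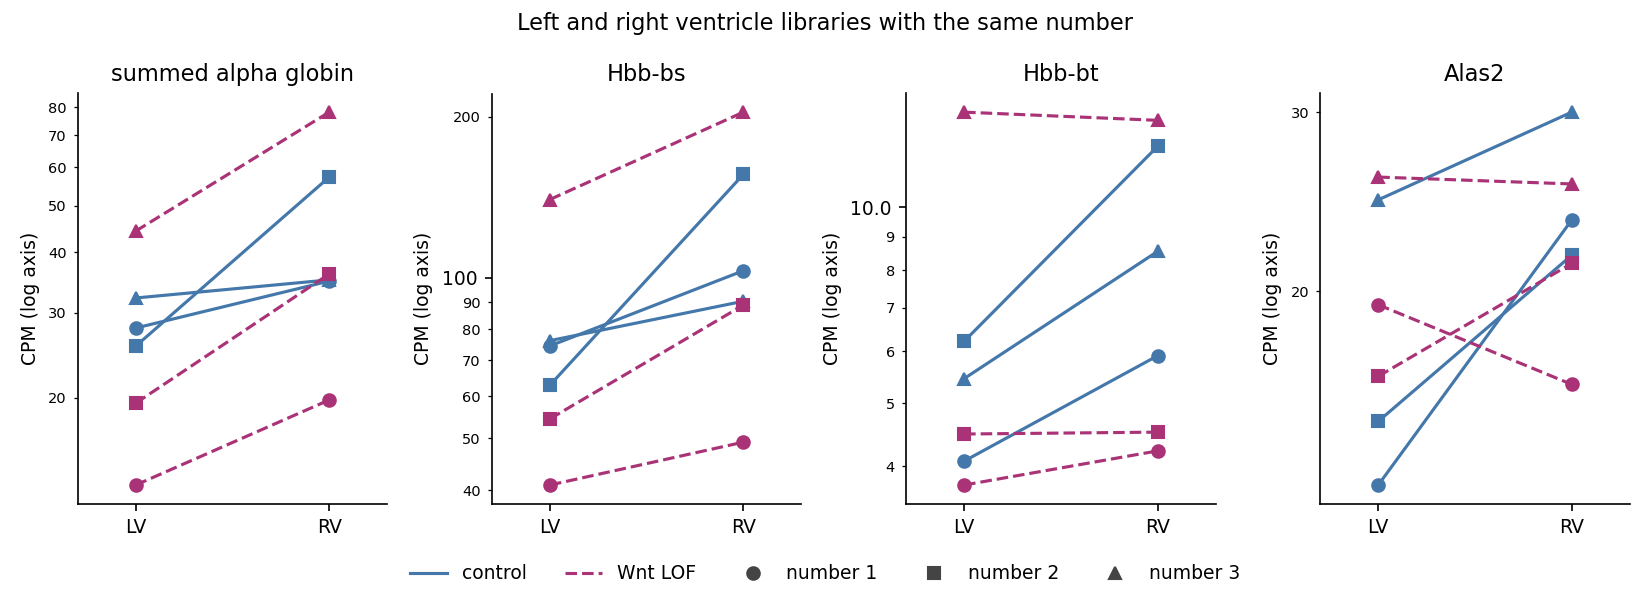
Level in the left (LV) and right (RV) ventricle library of each number (y axis, CPM on a log axis; solid blue, control; dashed purple, Wnt LOF; marker shape, library number). As labelled, all 6 lines rise from LV to RV for summed alpha globin and for Hbb-bs, while 5 of 6 rise for Hbb-bt and 4 of 6 for Alas2.

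By group, the difference between ventricles did not pass the test. In control hearts the log2 fold change of RV over LV in edgeR was 0.71 ± 0.58 (SE) for Hbb-bs, 0.77 ± 0.60 for Hbb-bt, 0.61 ± 0.41 for Hba-a1, 0.34 ± 2.56 for Hba-a2 and 0.53 ± 0.25 for Alas2, with a smallest adjusted p of 0.922. In Wnt LOF hearts it was 0.54 ± 0.58 for Hbb-bs, -0.01 ± 0.59 for Hbb-bt, 0.81 ± 0.42 for Hba-a1, 0.70 ± 2.36 for Hba-a2 and 0.02 ± 0.25 for Alas2, with an adjusted p of 1.0 in edgeR for each. With the copies summed before the fit, alpha was at 0.571 ± 0.55 and beta at 0.713 ± 0.578 in control. In Wnt LOF these sums were at 0.791 ± 0.552 and 0.499 ± 0.576. Called were 0 members and 0% of all genes in both comparisons, and no member had an unadjusted p under 0.05, beside 4.89% of all genes in control and 4.81% in Wnt LOF. In control hearts 5 of 5 members had a fold change above 0, with a median of 0.61 (0.004 over all genes), but Hbb-bs was the only member whose RV libraries were all above the LV libraries, a pattern that 6.68% of all genes had. In Wnt LOF hearts no member had it (3.36% of all genes), and in neither genotype were all RV libraries of a member below its LV libraries (5.92% of all genes in control and 3.7% in Wnt LOF). The summed globin level had log2 ratios of 0.68 in control, where the groups did not overlap, and 0.58 in Wnt LOF, where they did. Without control RV 2 the first was 0.40, and without WntLOF RV 3 the second was -0.14. Without the 3 libraries in doubt the values were 0.61 and 0.62, and without the libraries numbered 3 they were 0.88 and 0.57.

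Libraries with the same number had correlated deviations from their group means in each genotype, so equal numbers were treated as pairs of ventricles. With the number as a block, the mean difference of RV over LV across both genotypes was 0.66 ± 0.14 (log2, SE) for Hba-a1, 0.59 ± 0.14 for Hbb-bs, 0.39 ± 0.10 for Hbb-bt, 0.29 ± 0.09 for Alas2 and 0.37 ± 0.22 for Hba-a2. The edgeR adjusted p-values were 0.154, 0.183, 0.154, 0.222 and 0.498, and 0 of all genes (0%) were called, with 2057 at an unadjusted p under 0.05. The same values without the block were 0.71 ± 0.30 for Hba-a1 and 0.62 ± 0.41 for Hbb-bs, with edgeR adjusted p-values of 0.563 and 0.71. Without the block and without the 3 libraries in doubt, 0 of the 5 members and 0.0515% of all genes were called. Leaving out the 3 libraries in doubt and the partner of control LV 2, which leaves 4 pairs, Hbb-bs was higher in the RV by 0.49 ± 0.06 (edgeR adjusted p = 0.00871) and Hba-a1 by 0.54 ± 0.08 (edgeR adjusted p = 0.0115). In that fit 2 of the 5 members and 3.28% of all genes were called, and Hba-a2 (0.46), Hbb-bt (0.29) and Alas2 (0.37) were not. This fit was chosen after the data were seen, and 2 of the libraries were left out for a gene that differs between the ventricles, so its count of calls is not independent of that choice. Without the 4 libraries numbered 3, again with the block, 0 genes (0%) were called, and Hbb-bs stood at 0.68 ± 0.16 and Hba-a1 at 0.75 ± 0.15.

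Whether the difference between ventricles itself depended on the genotype was read from the interaction of genotype and ventricle. No member and 0% of all genes passed the adjusted threshold in edgeR, and 2.01% of all genes and no member had an unadjusted p under 0.05. The interaction was 0.20 ± 0.59 (log2, SE) for Hba-a1, -0.17 ± 0.82 for Hbb-bs, -0.78 ± 0.83 for Hbb-bt and -0.51 ± 0.36 for Alas2, with an edgeR adjusted p of 1.0 for each. The difference between control and Wnt LOF hearts was thus not resolved for these genes, and standard errors of this size leave wide intervals.

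**Figure D3:**
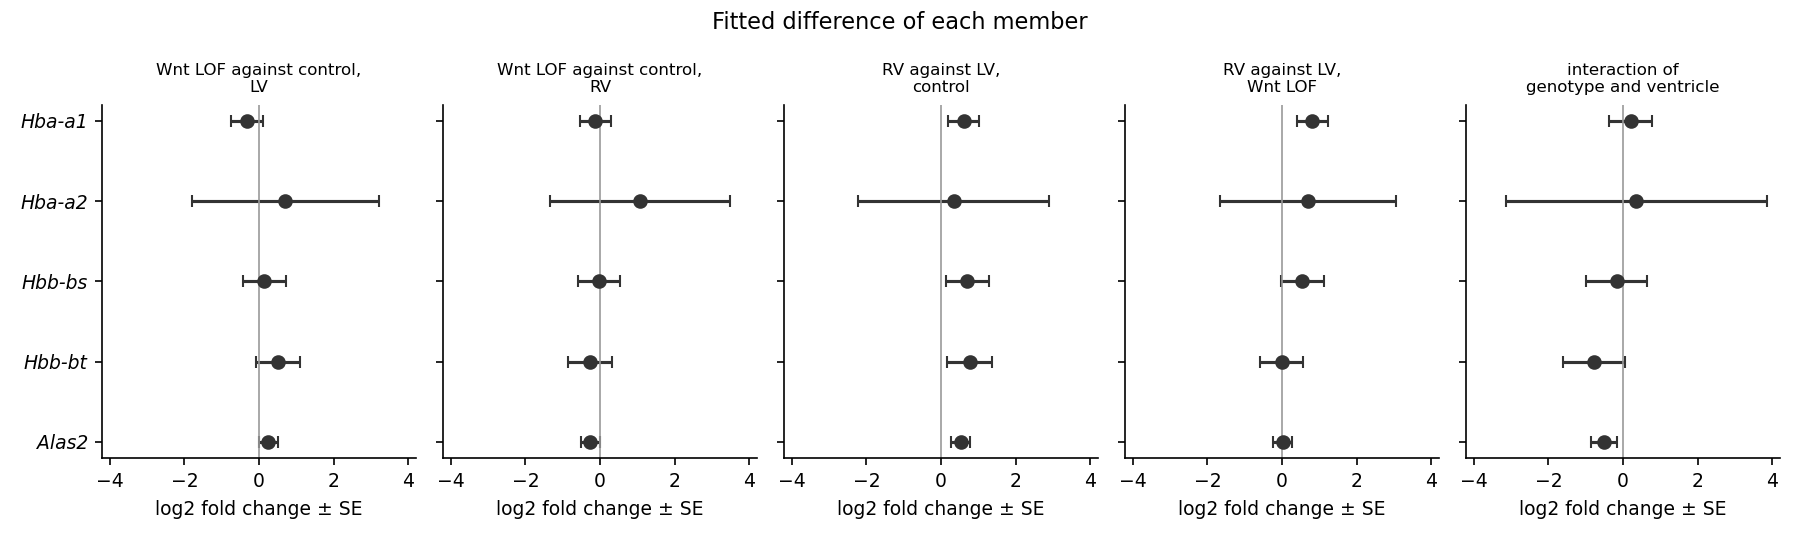
Log2 fold change (x axis, with its standard error) of the 5 members (y axis) in the 5 comparisons fitted over all 12 libraries without a block. No member passed the adjusted threshold, and the bars of Hba-a2 (SE from 2.36 to 3.49) are the widest because its counts sit in the libraries numbered 3.

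The spread of these genes within groups was large compared with other genes. The within-group SD of log2 CPM was 0.56 for Hba-a1, 0.73 for Hbb-bs, 0.75 for Hbb-bt, 0.36 for Alas2 and 3.72 for Hba-a2, beside a median of 0.2 over all 15494 tested genes. More variable than Hba-a2 were 5 genes, more than Hbb-bt 355, more than Hbb-bs 398, more than Hba-a1 971 and more than Alas2 3216. Without the 3 libraries in doubt the SDs were 0.52, 0.63, 0.80, 0.40 and 4.08 in the same order, beside a median of 0.19. Without the libraries numbered 3 they were 0.44, 0.41, 0.44, 0.18 and 0.51, beside a median of 0.17, so much of the spread lay in those libraries and Alas2 was then near the median.

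Other genes of the red cell varied in how they went with the globins. Of 40 genes for the red cell membrane and erythroid differentiation, 39 were in the table, 35 had a read, 22 were tested and 0 passed the test in any comparison. Their median log2 fold change was 0.05 in the LV and 0.005 in the RV for Wnt LOF over control, and 0.05 in control and 0.03 in Wnt LOF for RV over LV. Their summed level of 1800 to 2050 CPM was carried by genes that heart and vessel cells also express, such as the water channel Aqp1 (539 CPM on average), the spectrin Sptb (374 CPM), the transferrin receptor Tfrc (185 CPM) and the peroxiredoxin Prdx2 (176 CPM). Over the 12 libraries this sum had r = -0.14 with the log2 summed globin level, a description with no p that mostly reflects those abundant genes. Without the libraries numbered 3 it was -0.77. Gene by gene, 14 of the 22 tested genes had r above 0 (median 0.189), beside 50.2% of all tested genes (median 0.00245). The values ran from -0.69 for Sptb to 0.91 for Rhd, with 0.81 for Prdx2, 0.77 for the glucose transporter Slc2a1 and 0.60 for Slc4a1, the anion exchanger of the red cell membrane. For the rest of the 6 most abundant genes r was -0.19 for Aqp1, 0.06 for Tfrc, -0.19 for Epb41 and -0.42 for Tmod1.

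Several genes of the list that are more particular to red cells were low. Slc4a1 ran from 0.237 to 1.07 CPM. Klf1 and Gata1, transcription factors of red cell precursors, had 29 and 14 reads over all 12 libraries, and Car1, Cldn13, Gfi1b and Icam4 had 0. Rhd, which encodes the Rh blood group protein, ran from 3.26 CPM in WntLOF LV 1 to 8.48 CPM in control RV 2, and its r was 0.85 without the 3 libraries in doubt and 0.91 without the libraries numbered 3. The genes of this paragraph and Slc2a1 were singled out after their values were seen.

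Haem synthesis genes other than Alas2 had no call. Of 13 listed, 12 were in the table and tested, and 0 passed the test in any comparison. Their median log2 fold change of RV over LV was 0 in control and -0.02 in Wnt LOF, over genes that went both ways. Their summed level had r = 0.49 with the log2 summed globin level, 0.31 without the 3 libraries in doubt and 0.18 without the libraries numbered 3. Alas1, the housekeeping counterpart of Alas2, averaged 257 CPM, and Fech, the enzyme that inserts iron into haem, 110 CPM. Alad, the enzyme after the synthase, had log2 fold changes of RV over LV of 0.22 ± 0.09 (SE) in control (edgeR adjusted p = 0.922) and 0.26 ± 0.09 in Wnt LOF (edgeR adjusted p = 1.0). Urod, a later enzyme of the pathway, had 0.28 ± 0.13 and 0.23 ± 0.13, and Cpox, which acts after it, had -0.22 ± 0.13 and -0.25 ± 0.13, with the same edgeR adjusted p-values of 0.922 and 1.0. Genes that clear haem and haemoglobin, 8 listed and 7 tested, also had 0 calls, with Lrp1 at 474 CPM, Hmox2 at 27.2 CPM and Cd163, the haemoglobin receptor of macrophages, at 24.5 CPM on average.

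Markers of the other cells of blood had no call, and their relation to the globins differed between lists. Platelet and megakaryocyte markers (12 listed, 7 tested, 0 called) summed to between 20.3 and 26.0 CPM, with Pf4 at 6.20 CPM, and had r = 0.74 with the log2 summed globin level, 0.57 without the 3 libraries in doubt and 0.69 without the libraries numbered 3. Neutrophil markers (12 listed, 4 tested, 0 called) summed to between 2.68 and 8.24 CPM and had r = 0.11. B cell markers (10 listed, 6 tested, 0 called) summed to between 11.4 and 18.6 CPM, T cell markers (10 listed, 1 tested, 0 called) to between 1.81 and 3.55 CPM, and circulating monocyte markers (8 listed, 3 tested, 0 called) to between 59.1 and 77.8 CPM, of which F13a1, also made by resident macrophages, gave 60.1 CPM on average. Their r values with globin were 0.15, 0.04 and 0.10, and without the 3 libraries in doubt they were 0.39, 0.29 and 0.65. Without the libraries numbered 3 they were -0.32, -0.03 and 0.06. Over all 12 libraries platelet genes were thus the blood list with the highest r, over a range of levels far smaller than that of globin. The remaining tissue lists had no call either: 10 ventricular muscle, 3 atrial muscle and 8 endothelial genes were tested, with r of -0.18, 0.09 and 0.05.

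**Figure D4:**
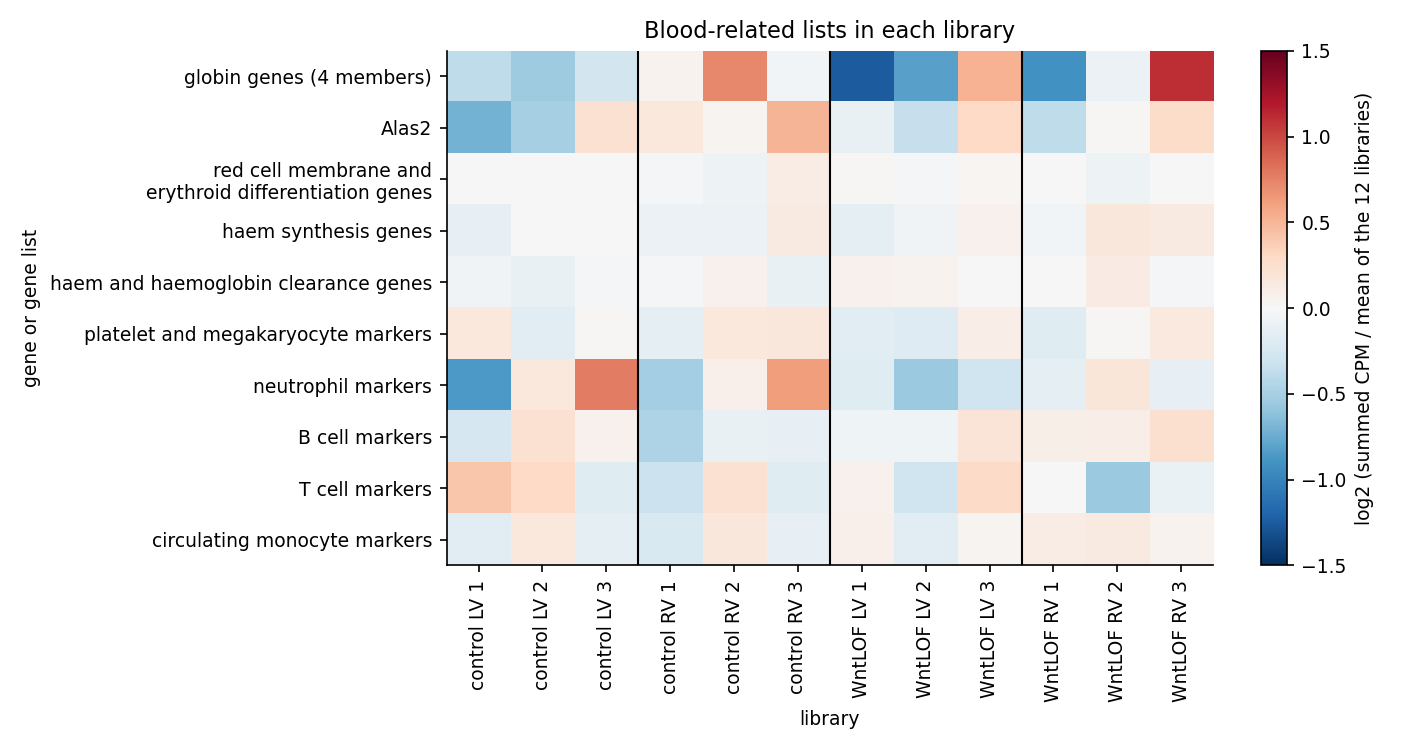
Level of the globin genes, of Alas2 and of 8 gene lists in each library, as the log2 ratio of the summed CPM to its mean over the 12 libraries (colour; columns, libraries in their 4 groups). The globin row runs from -1.25 in WntLOF LV 1 to 1.11 in WntLOF RV 3, while the platelet row stays between -0.19 and 0.16 and the red cell list between -0.07 and 0.11.

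The genes whose level over the 12 libraries was most like the summed globin level came from outside the red cell list. By Pearson's r of log2 CPM, a description with no p, the 10 highest outside the members were Svbp (0.95), Thoc7 (0.95), 2810025M15Rik (0.94), Gm5617 (0.93), Elob (0.92), Tmbim4 (0.92), Ndrg4 (0.92), Mrps12 (0.92), Gm15543 (0.91) and 1500011K16Rik (0.91). After subtraction of each group's mean, 4 of these 10 were again among the 10 highest, and by Spearman's rho 2 were, so the list depends on the measure. Rhd, of the red cell list, ranked 15 with 0.91 over all 12 libraries, but 185 without the 3 libraries in doubt and 94 without the libraries numbered 3. Without the 3 libraries in doubt 2 of these 10 were among the 10 highest, and without the libraries numbered 3 it was 1, so the list depends on the libraries as well. The members themselves had r of 0.89 for Hbb-bt, 0.85 for Hba-a1, 0.58 for Alas2 and 0.54 for Hba-a2, with Hbb-bs at 0.999 because it makes up most of the sum. All of them but Alas2 are part of that sum, so their r is partly built in. The points share libraries and depth, and a library with more globin also differed in many other genes.

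Of the atrial muscle markers, Myl7, Myl4, Sln and Bmp10 were highest in the library with the most globin, and Nppa was not. Myl7, an atrial myosin light chain, was at 10.2 CPM in WntLOF RV 3 and at 0.0555 to 1.26 CPM in the other 11 libraries. Myl4 was at 10.7 CPM in that library and at 1.29 to 2.86 CPM in the other 11. Sln (38 reads over all 12 libraries) was at 1.85 CPM in WntLOF RV 3 against 0 to 0.167 CPM. Bmp10 (24 reads) was at 1.15 CPM in that library against 0 to 0.132 CPM. Nppa, the atrial natriuretic peptide and the most abundant of the list, was at 22.1 CPM there, the second lowest of the 12 libraries (15.4 to 83.7 CPM). Nppa made up most of the summed atrial markers (42.0 of 46.2 CPM on average). This sum was at 46.0 CPM in WntLOF RV 3 and ran from 17.0 to 85.4 CPM, with r = 0.09 to globin. The part of the atrial markers in the globin level of that library was not tested. The RV over LV comparison of Wnt LOF without that library is given above.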

How the data were processed

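The authors deposited raw counts of reads per Ensembl gene for the 12 libraries, in a table of 41192 rows. The submitters' processing notes name featureCounts, Subread and edgeR, while the aligner, the build, the strand setting and the treatment of shared reads are each not given in the sources used here. The 598 repeated rows of a gene held equal counts and were left out, which left 40594 genes. The authors also deposited comparison tables of Wnt LOF against control with log2 fold changes and intervals, p-values and adjusted p-values per gene. Their signed fold column, treated as a score, and their log2 CPM columns are part of these deposited tables per the file headers and were not used.

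Groups and library numbers came from the sample titles. Counts were fitted with edgeR 4.0.16 in R 4.3.3 (limma 3.58.1; DESeq2 1.42.0 as an alternative). After filterByExpr by group, 15494 genes were tested, among them all 5 members. The factors of the trimmed mean of M-values (TMM) ran from 0.961 to 1.04, and CPM values use library sizes scaled by them. A robust quasi-likelihood model had 1 mean per group over all 12 libraries, and Benjamini-Hochberg adjustment ran over the whole set of tested genes, with calls at 0.05. Standard errors were obtained by dividing the absolute log2 fold change by the root of the F statistic. For all members but Hba-a2, counting error is small beside the spread between libraries, and it is large for that gene in the libraries numbered 1 and 2. The fit was tested on simulated counts with known changes. Merged exon lengths, alignments and neighbours used GENCODE M21, promoters the RefSeq table, and the copies were aligned with Biopython 1.88.

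Numbers were taken to pair LV and RV libraries of a genotype because the correlation of deviations from the group means, over all tested genes, exceeded 0.1 for every pair (0.411, 0.29 and 0.517 in control; 0.191, 0.197 and 0.594 in Wnt LOF). In Wnt LOF the pair numbered 1 (0.191) was below the highest value with another number (0.201). Between genotypes 3 of 6 same-numbered pairs exceeded 0.1 (0.113, 0.233 and 0.306). No label ties a number to a heart.

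The genes named are the 5 members, the 10 genes most like the summed globin level, up to 6 genes per list by mean level, and Ddx3y and Xist. Wif1, the genes of the Hba-a2 step and its neighbours, embryonic globins and some low red cell and haem genes were named after their values were seen. The members and all gene lists were chosen with earlier results of these data known. Alternatives were other size factors, filters, DESeq2, replicate blocks, a term for libraries with Ddx3y, the compared groups alone and leaving out libraries. The comparison over both genotypes, the fit of the summed copies, leaving out the libraries numbered 3, exchanged labels of a pair and correlations and spread over fewer libraries were added after the data were seen. Values of some single genes of the red cell list are not reported here, while the counts over the list include them.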

Additional observations from a re-analysis of the deposited data

How the results depend on the processing

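None of the 5 members was called in any of the 93 combinations of comparison and alternative setting for the 5 planned comparisons, and 0 of 1116 counts of called list genes were above 0. Of 475 fold changes of members under alternatives, 425 kept their direction and 50 reversed, 35 of them on leaving out 1 library. The cause of the reversals was not tested.

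For Wnt LOF over control in the LV, Hbb-bs was -0.063 with the replicate block over all groups, -0.033 with a term for libraries with Ddx3y and -0.52 without the libraries numbered 3, where Hbb-bt was -0.31. In the RV, without the 3 libraries in doubt, Hba-a1 was 0.16, Hbb-bs 0.33 and Hbb-bt 0.017, and without the libraries numbered 3 the summed globin level was -0.87. For RV over LV in control, Hba-a2 was -0.27 without the 3 libraries in doubt. For RV over LV in Wnt LOF, Alas2 was -0.042 on total counts, and Hbb-bt was 0.008 by DESeq2, 0.016 with the block over all groups, 0.032 with the block within genotype, 0.01 with the Ddx3y term and 0.077 without the libraries numbered 3. Without those libraries Hba-a2 fell below the filter and has no value, and the interaction of Hba-a1 was -0.018.

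Leaving out each library in turn, Wnt LOF over control in the LV ran from -4.27 to 5.23 for Hba-a2, -0.57 to 0.45 for Hbb-bs, -0.34 to 0.83 for Hbb-bt and -0.63 to 0.40 for summed globin. In the RV it ran from -0.43 to 0.32 for Hba-a1, -7.04 to 7.21 for Hba-a2, -0.76 to 0.33 for Hbb-bs and -1.03 to 0.04 for Hbb-bt. RV over LV ran from -5.80 to 4.87 for Hba-a2 in control, and in Wnt LOF from -7.40 to 5.67 for Hba-a2, -0.19 to 1.25 for Hbb-bs, -0.77 to 0.84 for Hbb-bt and -0.15 to 0.21 for Alas2. The interaction ran from -0.11 to 0.64 for Hba-a1, -7.73 to 6.51 for Hba-a2, -0.90 to 0.54 for Hbb-bs and -1.54 to 0.071 for Hbb-bt.

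Over all genes, 9 were called for RV over LV in control with the compared groups alone and 2 without the 3 libraries in doubt. In Wnt LOF there were 1 with the block within genotype, 2 without the 3 libraries in doubt and 0 to 1 on leaving out each library, with the 1 found without WntLOF RV 1, and for the interaction 1 with the block. Over both genotypes 8 were called without the 3 libraries in doubt and 511 with the block, which also left out control RV 2, Hba-a1 and Hbb-bs among the latter. The block changed no other call of a member. With 3 libraries a group and no block, standard errors near 0.6 for the beta genes and low counts of Hba-a2 limited what could be resolved, and with the block the standard errors were smaller.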
